A study of Mus musculus with 16 samples.

Results

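The Bcl2 family sets how readily a blood cell dies through its mitochondria, and 10 of its genes were followed across mouse bone marrow: Bcl2, Bcl2l1, Mcl1 and Bcl2a1b, which protect cells, Bcl2l11, Bbc3, Pmaip1 and Bid, which push cells towards death, and Bax and Bak1, which carry death out. They were picked by symbol out of 27998 genes counted in each library. Single-cell RNA sequencing of lineage-negative marrow came from 16 mice, WT (Tet2fl/fl) or Tet2-KO, with 4 vehicle mice and 4 IL1β mice of each genotype. All mice were C57BL/6 and 6 to 12 weeks old per the labels, and all were injected intraperitoneally for 5 weeks with vehicle or with 500 ng of recombinant IL1β per mouse and day. Tet2-KO mice carried both floxed alleles and Vav-Cre, which deletes in all hematopoietic cells. WT mice carried the floxed alleles and no Cre, so the transgene and the loss of Tet2 cannot be told apart. Each of the 8 libraries pooled 2 mice of a group, which hashtag antibodies distinguished, so library and group cannot be told apart either. Cohorts were matched for age and balanced for sex per the study's methods, and the sex of each mouse was not used here.

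Protective members such as BCL2, BCL-XL (the product of Bcl2l1) and MCL1 hold BAX and BAK in check at the mitochondrial membrane. BH3-only members, among them BIM (Bcl2l11), PUMA (Bbc3), NOXA (Pmaip1) and BID, bind the protective members or activate BAX and BAK, which then open the outer membrane and release cytochrome c. Hematopoietic stem cells are known to depend on MCL1, lymphocytes on BCL2, and megakaryocytes and late erythroid cells on BCL-XL.

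After filtering, 94917 of 121405 barcodes were kept and 57896 cells were assigned to 1 mouse. Libraries had a median of 4436 to 7363 UMIs (unique transcript molecules) per kept cell. Any pair of libraries shared between 26 and 101 barcodes. Clusters were made from WT vehicle cells, and the other cells were placed in them by their nearest WT vehicle cells. Clusters were named from marker genes and are written without the suffix "-like": HSC, Prog (a cluster led by the lymphoid genes Dntt, Flt3 and Satb1), IMP (immature myeloid progenitors), Gran/Mono Prog, Mono, Neut, Baso, MEP, CFU-E, CLP, MegP, EryB (erythroblasts), DC, pDC, B/plasma, T/NK and Eo. The cluster that the marker lists named CLP was led by the B-lineage genes Ebf1, Vpreb3, Vpreb1, Igll1, Cd79a and Pax5. Its levels are therefore not those of common lymphoid progenitors alone. UMIs were summed per mouse and class, and levels are given as CPM, the UMIs of a gene per 1000000 UMIs of that class in that mouse. CPM and their overlaps do not use the scaling factors (TMM) of the fits below. Ratios of CPM therefore need not equal the fitted fold changes. In such sums, fewer cells with a transcript and fewer molecules per cell cannot be told apart. Tet2 itself was at 31.0 to 46.9 CPM over all cells in the WT vehicle mice and at 36.4 to 46.2 CPM in the Tet2-KO vehicle mice. These are counts of the 3′ ends of transcripts, and the deleted part of Tet2 is not given in the sources used here, so this level did not check the genotype.

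Bcl2 differed widely between classes, and Bax little. These means pool vehicle and IL1β mice. Over all mice, Bcl2 averaged 555 CPM in T/NK (SD 164, n = 15), 384 CPM in pDC (SD 84.1, n = 16) and 252 CPM in Prog (SD 52.7, n = 15), and it was lowest in CFU-E at 12.2 CPM (SD 6.74, n = 16). Each of the first 3 steps down this order exceeded the larger SD of the neighbouring classes, as did 6 of its 16 steps in all. In the WT vehicle mice alone it also ran from T/NK (482 CPM, SD 166, n = 3) to CFU-E (9.85 CPM, SD 3.26, n = 4). Mcl1 was highest in B/plasma at 476 CPM (SD 62.0), followed by DC at 389 CPM (SD 60.2) and HSC at 300.1 CPM (SD 99.2), and lowest in Gran/Mono Prog at 94.2 CPM (SD 20.6, each n = 16). Of its 16 steps, 1 exceeded that spread, from B/plasma to DC. Bcl2l1 averaged 55.3 CPM in T/NK and 46.1 CPM in MegP, the platelet-forming lineage, against 5.45 CPM in CFU-E, and none of its neighbours in that order was apart by more than the SD. The T/NK mean of Bcl2l1 had an SD of 42.6 CPM (n = 15), and in the WT vehicle mice alone MegP was highest of the 15 classes with 3 or more of these mice, at 38.1 CPM (SD 4.44, n = 4). Mcl1 kept B/plasma as highest and Gran/Mono Prog as lowest in those mice (445 and 78.8 CPM).

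Among the death genes, Bax stayed between 62.2 CPM in HSC (SD 20.3, n = 16) and 130.3 CPM in CLP (SD 65.6, n = 4), and Bak1 between 28.3 CPM in B/plasma and 82.3 CPM in DC. No neighbouring classes of either gene were apart by more than the SD. CLP held vehicle mice only, and in the WT vehicle mice alone, over the same 15 classes, Bax ran from 79.5 CPM in Prog (SD 17.8) to 141 CPM in Mono (SD 23.2, each n = 4). Pmaip1 was highest in DC at 114 CPM (SD 103, n = 16), then Prog at 68.8 CPM (SD 82.7, n = 15) and pDC at 59.4 CPM (SD 56.6, n = 16), with an SD close to or above each mean. In the WT vehicle mice alone the levels were lower and ordered differently, with Pmaip1 at 47.1 CPM in DC (SD 39.1), 10.4 CPM in Mono (SD 9.89) and 1.84 CPM in Prog (SD 1.32, each n = 4). Bcl2l11 was highest in Prog at 63.6 CPM and T/NK at 62.6 CPM, and Bid in Mono at 72.8 CPM. Bbc3 ranged from 21.2 CPM in MegP down to 2.06 CPM in Gran/Mono Prog, apart from CLP, where no UMI was found in the 4 mice with enough of its cells. CLP rested on 48 cells and Eo on 10 mice. Clusters were made from WT vehicle cells that also enter these levels, so differences between classes were not tested.

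**Figure D1:**
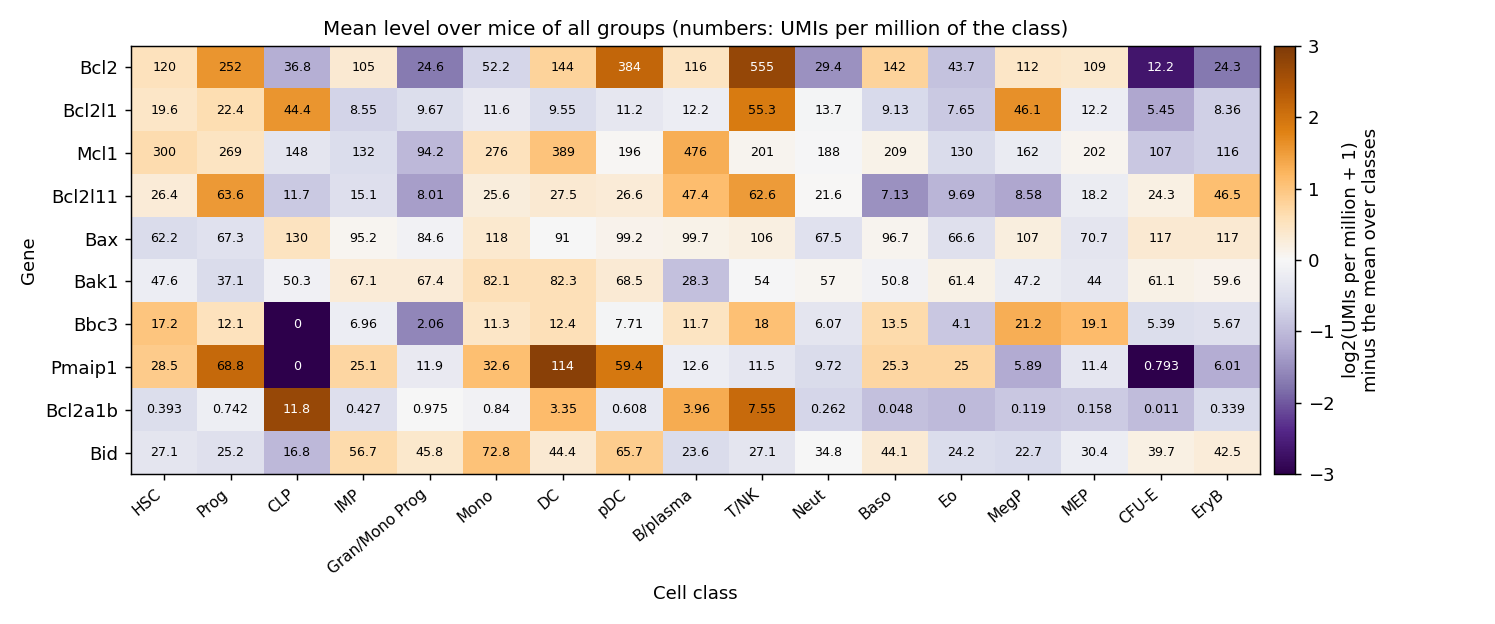
Mean level of the 10 genes (rows) in 17 cell classes (columns), printed as CPM and averaged over mice of all 4 groups. Colours give log2(CPM + 1) minus the mean of that gene over classes, so they compare classes within a gene. Bcl2 spans 12.2 in CFU-E to 555 in T/NK while Bax spans 62.2 to 130.3.

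Over the 17 classes, the genes with the most similar pattern of log2(CPM + 1) were Nfatc1 for Bcl2 (Pearson r = 0.90), Igtp for Bcl2l1 (r = 0.89), Zfp467 for Mcl1 (r = 0.91), Arnt for Bcl2l11 (r = 0.82), Nfkbib for Bax (r = 0.89), Cdca3 for Bak1 (r = 0.87), Crk for Bbc3 (r = 0.95), Pkib for Pmaip1 (r = 0.92), Grap for Bcl2a1b (r = 0.92) and H2afj for Bid (r = 0.85). The search covered 8775 genes that reached 20 CPM in at least 1 class. The 17 points share libraries and mice, and the values are a description. Bcl2a1b had 256 UMIs over all 17 classes, and Bbc3 and Pmaip1 had no UMI in CLP. The likeness of these 3 genes thus rests partly on very low counts. Among the 10 genes themselves, Bak1 and Bid were the most alike (r = 0.70 over 17 classes).

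IL1β was compared with vehicle in WT and in Tet2-KO marrow in 9 classes, each fitted across all its genes with edgeR's quasi-likelihood test (Benjamini-Hochberg adjusted p under 0.05 called). The other classes were not compared. Among them were DC and pDC, with high mean Pmaip1, although all 16 mice had at least 10 cells of each. Of the 90 combinations of member and class, 74 had enough UMIs to be tested. In WT, 20 of 74 were called (13 higher and 7 lower), against 14% of all gene and class combinations called, 6% higher and 8.04% lower. In Tet2-KO, 17 of 74 were called (9 higher and 8 lower), against 18.3% of all, 8.11% higher and 10.2% lower. The share in Tet2-KO was thus near that of all genes. The median log2 fold change of the 74 combinations was 0.22 in WT and 0.13 in Tet2-KO, while the median of all genes lay between -0.004 and 0.04 in the 9 classes in WT. Pmaip1 supplied 7 of the 13 rises in WT and Bax 6 of the 7 falls.

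**Figure D2:**
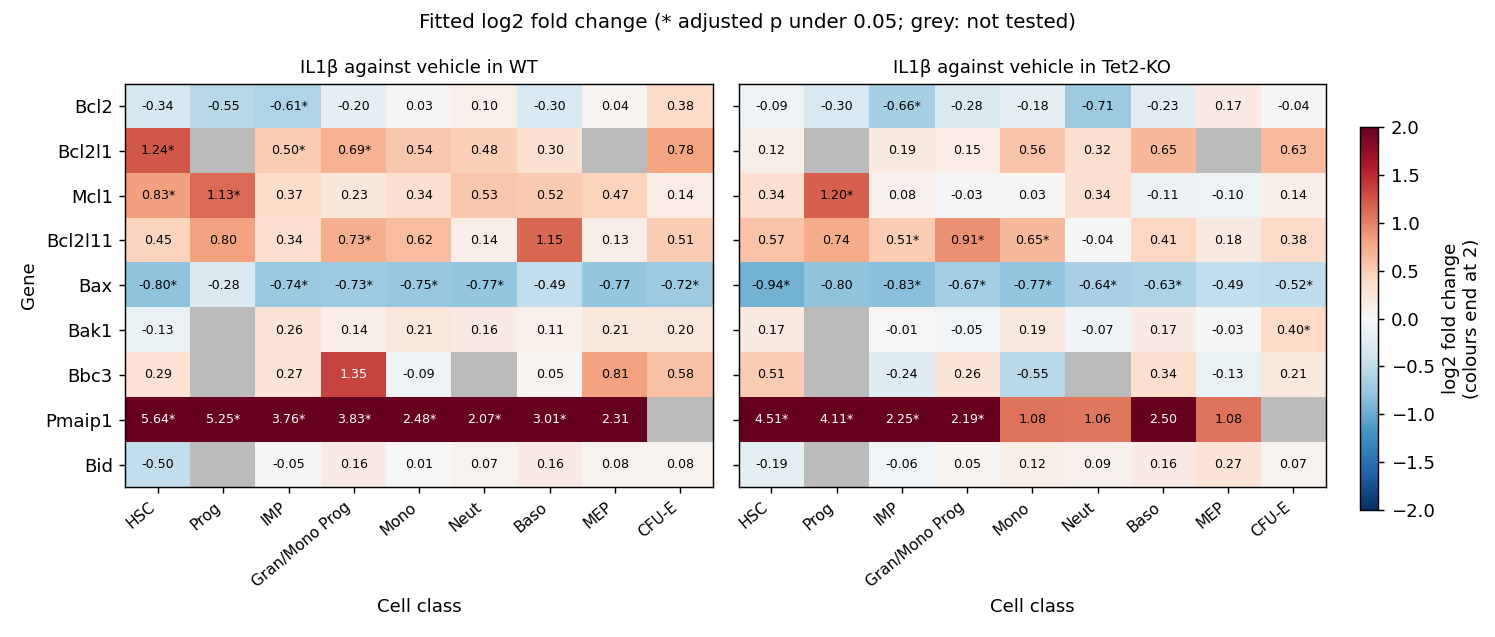
Fitted log2 fold change of IL1β against vehicle for 9 genes (rows) in 9 cell classes (columns), in WT (left) and Tet2-KO (right). Stars mark an adjusted p under 0.05, grey cells were not tested, and the colour scale ends at 2. The Pmaip1 row is positive and the Bax row negative in every class tested in both genotypes.

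Counted by class in WT, 4 of 9 members were called in HSC against 11.7% of all genes, 2 of 5 in Prog against 4.86%, 4 of 9 in IMP against 27.8% and 4 of 9 in Gran/Mono Prog against 26.7%. In the mature and erythroid classes of WT, the counts were 2 of 9 in Mono against 9.14%, 2 of 8 in Neut against 7.15%, 1 of 9 in Baso against 6.75%, 0 of 8 in MEP against 2.39% and 1 of 8 in CFU-E against 17.4%. In Tet2-KO they were 2 of 9 in HSC against 20%, 2 of 5 in Prog against 6.02%, 4 of 9 in IMP against 35.2%, 3 of 9 in Gran/Mono Prog against 35.6% and 2 of 9 in Mono against 10.1%. The other Tet2-KO classes had 1 of 8 in Neut against 15.3%, 1 of 9 in Baso against 9%, 0 of 8 in MEP against 0.805% and 2 of 8 in CFU-E against 16.3%.

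Pmaip1, which encodes NOXA, the BH3-only antagonist of MCL1, had the largest fitted rise among the members. In HSC of WT mice it was at 0, 0, 1.48 and 0.801 CPM with vehicle and at 48.9, 61.3, 54.9 and 78.6 CPM with IL1β. The Tet2-KO mice had 5.46, 3.04, 0 and 0 CPM with vehicle and 70.8, 33.9, 70.3 and 26.8 CPM with IL1β. The IL1β mice lay far above the vehicle mice in both genotypes, with no overlap. The vehicle values rest on 3 UMIs in all in WT and 8 in Tet2-KO, against 177 and 247 with IL1β. The pooled ratio was 58.0 in WT (exact 95% interval of the counts 19.5 to 284) and 24.0 in Tet2-KO (12.0 to 56.2), where the intervals cover counting error only. The fitted log2 fold changes were 5.65 ± 0.64 (SE, adjusted p = 5.51e-06, edgeR) in WT and 4.51 ± 0.50 (adjusted p = 2.66e-06) in Tet2-KO, and at such low counts they depend on the prior count and are not bounds.

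In Prog, WT vehicle mice were at 2.73, 0, 2.87 and 1.76 CPM of Pmaip1 and the 3 WT IL1β mice with at least 10 such cells at 41.4, 165 and 115 CPM. Tet2-KO vehicle mice were at 24.0, 0, 3.58 and 0 CPM there, and Tet2-KO IL1β mice at 244, 108, 174 and 149 CPM. The groups did not overlap, and the log2 fold change was 5.25 ± 0.70 in WT and 4.11 ± 0.50 in Tet2-KO (edgeR adjusted p = 4.86e-05 and 7.93e-06). The pooled ratio was 48.9 (17.8 to 187) and 17.7 (9.82 to 34.6), with intervals of counting error only.

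In the larger progenitor classes the counts were high enough for narrower intervals, which again cover counting error only and leave out the spread between mice. In IMP, WT vehicle mice were at 7.60, 7.46, 0.843 and 1.06 CPM of Pmaip1 and WT IL1β mice at 71.4, 59.9, 35.6 and 21.4 CPM. The Tet2-KO mice had 17.5, 11.9, 2.04 and 1.79 CPM with vehicle, and those with IL1β had 39.2, 64.0, 36.5 and 22.9 CPM. IL1β and vehicle mice did not overlap in either genotype, and the pooled ratio was 17.8 in WT (13.2 to 24.5) and 5.49 in Tet2-KO (4.65 to 6.52). With mice as replicates, the difference between the genotypes was not called. The log2 fold change was 3.76 ± 0.65 in WT (edgeR adjusted p = 0.000273) and 2.25 ± 0.50 in Tet2-KO (adjusted p = 0.00161). In Gran/Mono Prog, WT mice had 4.67, 0, 0.614 and 0.90 CPM with vehicle and 45.5, 22.2, 12.0 and 13.7 CPM with IL1β, and Tet2-KO mice had 6.67, 4.49, 1.25 and 0 CPM and 20.4, 38.5, 11.9 and 8.31 CPM. The fold changes there were 3.83 ± 0.81 (adjusted p = 0.00159) and 2.19 ± 0.60 (adjusted p = 0.00732), again without overlap of the mice. The Tet2-KO call in Gran/Mono Prog was lost with the 8 pools of 2 mice each as replicates, while its fold change over all alternatives was 1.65 to 3.00. The pool sums also took in cells negative for hashtags, which values per mouse leave out.

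Pmaip1 also rose in Mono, Neut and Baso of WT mice, by 2.48 ± 0.74, 2.07 ± 0.59 and 3.01 ± 0.82 on the log2 scale (edgeR adjusted p = 0.0381, 0.033 and 0.0271). The mice overlapped in Mono, where vehicle ranged from 1.75 to 24.4 CPM and IL1β from 15.8 to 107 CPM. These 3 calls were lost when any of WT vehicle mice 3 and 4 or WT IL1β mouse 1 was left out, with the call in Mono lost without WT IL1β mouse 2 as well and that in Neut without WT vehicle mouse 1. They were also lost with the 8 pools as replicates, those in Mono and Baso with DESeq2 and that in Mono with a marker gate on each cell. Over all alternatives the fold changes were 1.59 to 3.73 in Mono, 1.36 to 2.44 in Neut and 2.08 to 4.17 in Baso. Of 18 marker lists in these WT classes, IL1β mice were higher without overlap in 1 in Mono (Baso) and 2 in Neut (Mac and Baso). Here and below, such counts have no share over all genes beside them, and the sums are CPM without TMM factors. In Baso 2 were higher (MegP and CFU-E) and 2 lower (Prog and T/NK). The median mitochondrial share per cell in Baso of WT was 3.02% with vehicle and 3.97% with IL1β. The part of these measures was not tested. In Tet2-KO the same classes gave 1.08 ± 0.61 in Mono, 1.06 ± 0.58 in Neut and 2.50 ± 0.81 in Baso, none below the threshold (adjusted p = 0.273, 0.229 and 0.054), with all 3 called when the pool number was a block and none when the 8 pools were the replicates. MEP was not called in either genotype (2.31 ± 0.80 in WT, adjusted p = 0.141, and 1.08 ± 0.73 in Tet2-KO, adjusted p = 0.56).

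**Figure D3:**
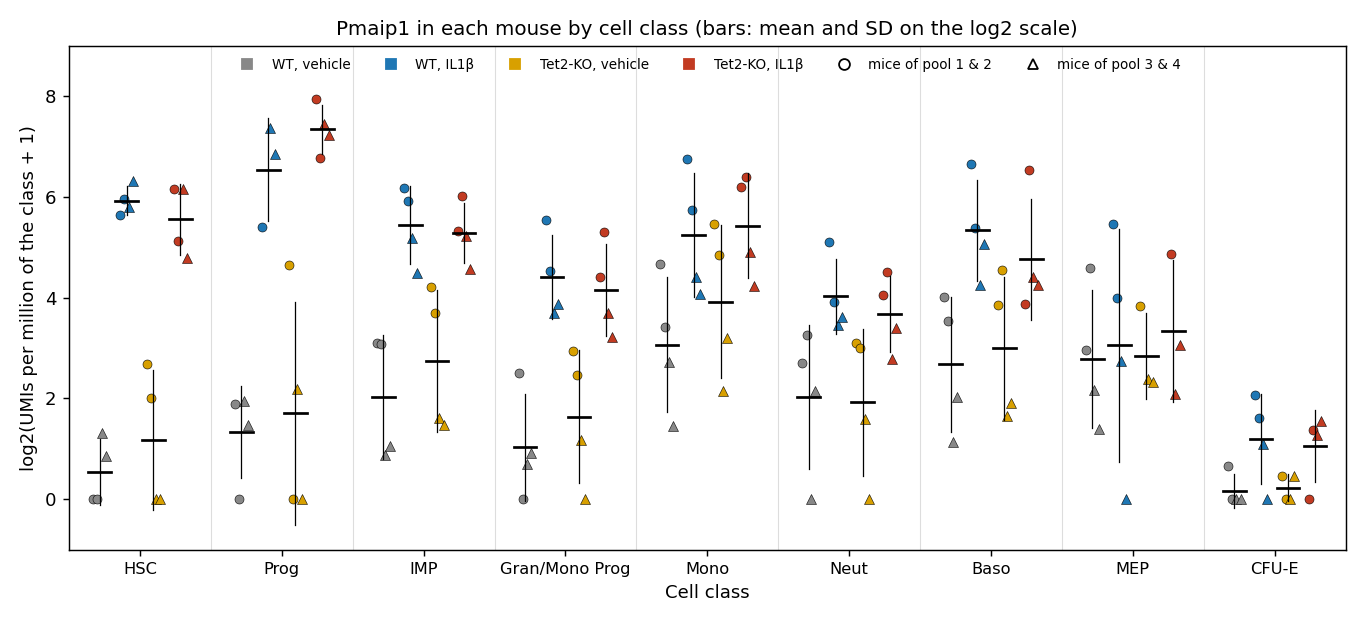
Pmaip1 in each mouse (points) as log2(CPM + 1) on the y axis, by cell class on the x axis, with colours for the 4 groups and shapes for the pools. Bars show the mean and SD on that log2 scale. In HSC, Prog, IMP and Gran/Mono Prog every IL1β mouse lies above every vehicle mouse of its genotype.

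Pmaip1 differed between the pool numbers in many combinations of group and class. Both mice of pool 1 and 2 were above both mice of pool 3 and 4 in 23 of 32 combinations of group and class and below them in 2, and Mcl1 had the same order in 24 of 36 combinations against 1. For Bax the counts were 8 of 36 above and 12 below. These combinations reuse the same mice across classes. The order was counted for the members alone, so no share over all genes stands beside it. Within the pools numbered 1 and 2 alone, Pmaip1 in IMP of WT mice averaged 7.53 CPM with vehicle and 65.7 CPM with IL1β, and within the pools numbered 3 and 4 it averaged 0.954 and 28.5 CPM. All 20 combinations called in WT and all 17 called in Tet2-KO had the same sign within both pool numbers. They were called from these same mice, so the shared sign is not a separate test.

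Bax, the effector that BH3-only proteins switch on, fell with IL1β in most classes of both genotypes. In HSC, WT vehicle mice were at 75.3, 95.8, 69.6 and 81.7 CPM and WT IL1β mice at 49.5, 56.4, 45.3 and 30.6 CPM. Tet2-KO vehicle mice were at 70.2, 69.8, 90.7 and 84.4 CPM there and Tet2-KO IL1β mice at 40.4, 39.6, 38.6 and 57.8 CPM. All IL1β mice were below all vehicle mice of their genotype, and the fall on the log2 scale was -0.80 ± 0.18 in WT (edgeR adjusted p = 0.0048) and -0.94 ± 0.16 in Tet2-KO (adjusted p = 0.000181). In IMP, WT mice went from 119, 110, 106 and 120 CPM with vehicle to 84.5, 83.2, 70.9 and 69.6 CPM with IL1β. Tet2-KO mice had 105, 102, 128 and 133 CPM in IMP with vehicle and 63.2, 66.1, 80.4 and 82.6 CPM with IL1β. Again the groups did not overlap (-0.74 ± 0.12 in WT, adjusted p = 0.000202, and -0.83 ± 0.12 in Tet2-KO, adjusted p = 3.28e-05). In the same classes the median mitochondrial share per cell was 3.72% with vehicle and 5.23% with IL1β in IMP of WT, 3.57% and 5.06% in IMP of Tet2-KO, 3.94% and 5.29% in Gran/Mono Prog of WT, and 3.78% and 4.92% in Gran/Mono Prog of Tet2-KO. The 10 Gran/Mono Prog markers in their own class summed to 27120 to 29400 CPM with vehicle and 19840 to 22110 with IL1β in WT, and to 29720 to 33410 and 21640 to 26900 in Tet2-KO. In IMP of WT the same list summed to 10720 to 11310 CPM with vehicle and 8794 to 10250 with IL1β, the CLP list to 60.9 to 76.1 and 96.5 to 110.9, and the Baso list to 280.7 to 328.3 and 446.9 to 574.6. In all, vehicle and IL1β mice did not overlap in 9 of 18 marker lists in IMP of WT (8 higher and 1 lower with IL1β) and in 2 in IMP of Tet2-KO (CLP higher and EryB lower), and in Gran/Mono Prog 7 lists were higher and 3 lower in WT and 4 higher and 4 lower in Tet2-KO. Without TMM factors, as in these sums, the median log2 fold change of all genes in IMP of WT was 0.23, against 0.04 with them. Counts of higher lists include that shift. The part of these measures in the Bax, Pmaip1 and Bcl2 results of these classes was not tested.

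Bax was also called lower in Gran/Mono Prog (-0.73 ± 0.14 in WT and -0.67 ± 0.13 in Tet2-KO), Mono (-0.75 ± 0.15 and -0.77 ± 0.14), Neut (-0.77 ± 0.14 and -0.64 ± 0.15) and CFU-E (-0.72 ± 0.14 and -0.52 ± 0.13), and in Baso of Tet2-KO (-0.63 ± 0.16, edgeR adjusted p = 0.0191). The log2 fold change was negative in all 9 classes of both genotypes, with Prog and MEP not called in either and Baso not in WT (-0.49 ± 0.17, adjusted p = 0.076). The median mitochondrial share per cell was 3.31% with vehicle and 4.50% with IL1β in Mono of WT, 3.26% and 4.35% in Mono of Tet2-KO, 4.42% and 5.82% in CFU-E of WT, 3.97% and 5.48% in CFU-E of Tet2-KO, and 2.97% and 3.64% in Baso of Tet2-KO. In Neut it was 2.23% and 3.26% in WT and 2.15% and 2.11% in Tet2-KO. Of 18 marker lists, 6 were higher without overlap with IL1β in CFU-E of WT and 1 in CFU-E of Tet2-KO (Prog). The B/plasma list in CFU-E of WT summed to 46.6 to 73.9 CPM with vehicle and 97.9 to 1789 with IL1β. In Mono 1 list was higher in WT and 2 in Tet2-KO. In Neut 2 were higher in WT, and 1 was higher and 2 were lower in Tet2-KO. In Baso of Tet2-KO 1 was lower. The part of this share and of these lists in the results was not tested. Neut held a smaller cluster led by Retnlg and Mmp9 that also carried erythroid markers. Over the whole Neut class the 10 CFU-E markers summed to 2351 to 3732 CPM in WT vehicle mice and 1561 to 2744 CPM in WT IL1β mice, and to 1568 to 3417 CPM and 794.2 to 1185 CPM in Tet2-KO. Without that cluster, chosen after the data were seen, the Neut calls of Bax in both genotypes and of Pmaip1 in WT were lost, leaving 18 calls in WT and 16 in Tet2-KO. The log2 fold change of Bax in Neut stayed between -0.82 and -0.62 in WT and between -0.79 and -0.60 in Tet2-KO over the 26 alternatives, this one included, and the gene was called in 24 of them in each genotype. The falls of Bax in Baso and CFU-E of Tet2-KO mice were lost without Tet2-KO vehicle mouse 3 or 4, and that in Baso also without Tet2-KO IL1β mouse 2. With the 8 pools as replicates, Bax was no longer called in Mono and Neut of either genotype or in Baso and CFU-E of Tet2-KO, while its calls in HSC, IMP and Gran/Mono Prog of both and in CFU-E of WT were kept. The CFU-E call in Tet2-KO was also lost with a mitochondrial limit of 5%. Over all alternatives the log2 fold change of Bax was -0.94 to -0.66 in Mono of WT, -0.85 to -0.66 in Mono of Tet2-KO, -0.78 to -0.46 in Baso of Tet2-KO and -0.66 to -0.33 in CFU-E of Tet2-KO.

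**Figure D4:**
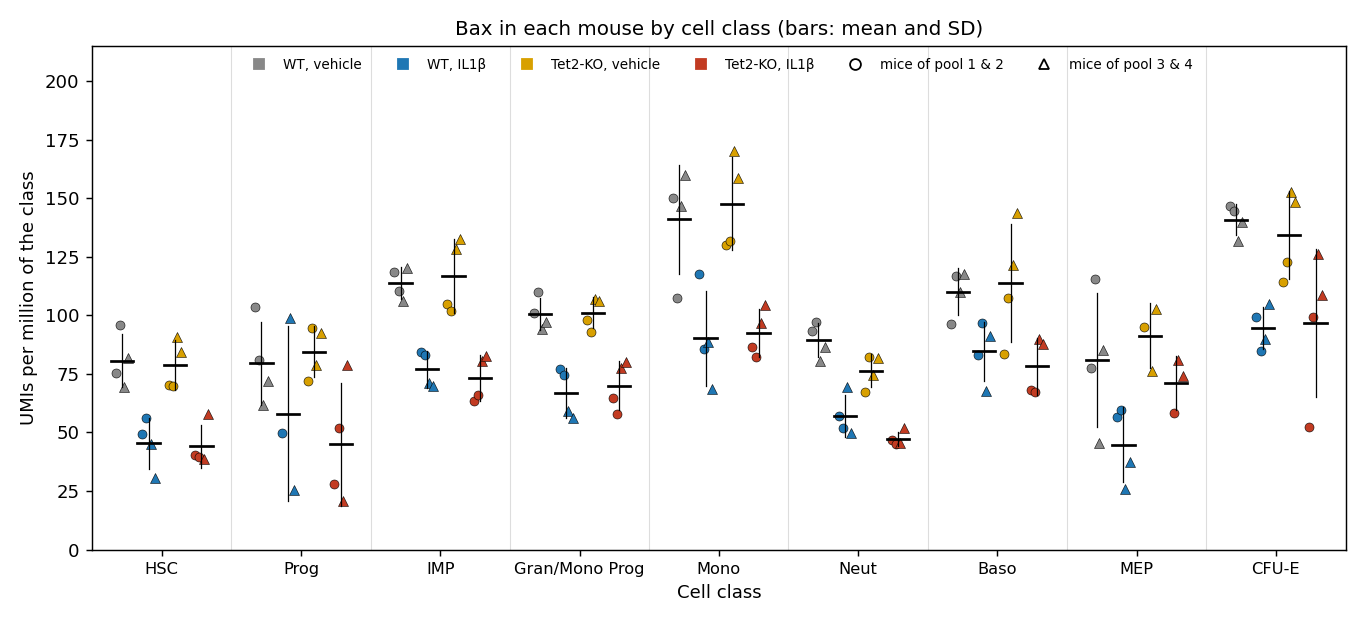
Bax in each mouse (points) as CPM on the y axis, by cell class on the x axis, with colours for the 4 groups, shapes for the pools, and bars for the mean and SD. IL1β mice lie below vehicle mice of the same genotype without overlap in HSC, IMP, Gran/Mono Prog and Neut.

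Bak1, the other effector, was not called in WT in any of 8 classes (log2 fold changes -0.13 to 0.26). In Tet2-KO it was called in CFU-E alone among 8 classes, where vehicle mice were at 56.6, 55.5, 42.5 and 44.8 CPM and IL1β mice at 64.8, 84.2, 64.5 and 59.8 CPM. These groups did not overlap, and the log2 fold change was 0.40 ± 0.12 (edgeR adjusted p = 0.0212). That call was lost in 7 of 25 alternatives: without Tet2-KO vehicle mouse 3 or 4 or Tet2-KO IL1β mouse 2, with DESeq2, with a mitochondrial limit of 5%, with a marker gate on each cell and with the 8 pools as replicates. Its log2 fold change ranged from 0.15, with the pools, to 0.53.

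The promoters of Bax, Mcl1 and Bbc3 are shown because these genes, a falling effector, a rising protector and a BH3-only gene that was not called, differ in the letters that match known factors. Each is the 250 bases before a RefSeq transcript start on GRCm38.p6 (the assembly also called mm10), 5′ to 3′ on the gene's strand: Bax at chr7:45466899-45467148 (minus strand), Mcl1 at chr3:95658471-95658720 (plus strand) and the most upstream of 3 Bbc3 starts at chr7:16309333-16309582 (plus strand). The Bax gene spans chr7:45461697-45466898 and the Mcl1 gene chr3:95658788-95663176 in GENCODE vM21 on that assembly. Capitals mark matches on either strand to GC boxes (GGGCGG), the NF-κB motif (GGGA, any 4 bases, CC), the CREB core TGACG, the AP-1 motif TGANTCA and the 10-base p53 half-site, and neighbouring matches can overlap.
Bax: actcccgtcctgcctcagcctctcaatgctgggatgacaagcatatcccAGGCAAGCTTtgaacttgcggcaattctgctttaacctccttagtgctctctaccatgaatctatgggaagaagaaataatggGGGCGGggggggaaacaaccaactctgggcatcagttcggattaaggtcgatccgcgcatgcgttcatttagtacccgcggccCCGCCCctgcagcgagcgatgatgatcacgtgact
Mcl1: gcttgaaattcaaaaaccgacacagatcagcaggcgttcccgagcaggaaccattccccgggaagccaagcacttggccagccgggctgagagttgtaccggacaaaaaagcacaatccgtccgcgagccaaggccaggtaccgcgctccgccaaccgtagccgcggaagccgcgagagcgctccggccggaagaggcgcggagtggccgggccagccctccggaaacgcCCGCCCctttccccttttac
Bbc3: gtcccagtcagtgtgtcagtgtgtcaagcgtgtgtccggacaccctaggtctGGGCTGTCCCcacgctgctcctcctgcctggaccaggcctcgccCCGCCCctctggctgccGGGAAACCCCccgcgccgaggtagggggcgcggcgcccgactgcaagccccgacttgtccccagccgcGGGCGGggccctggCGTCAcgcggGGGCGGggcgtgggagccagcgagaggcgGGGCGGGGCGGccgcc

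The Bax promoter held 1 match to the p53 half-site, 201 bases before the start, and 2 GC boxes, Mcl1 held 1 GC box, and this Bbc3 promoter held 2 NF-κB matches, 1 CREB core and 5 GC boxes. The other 2 Bbc3 promoters held 0 NF-κB matches and 0 CREB cores, and 1 and 7 GC boxes. Of 14 promoters of 9 members, with Pmaip1 left out, 10 held a GC box, 3 the CREB core, 2 the NF-κB motif, and 1 each the p53 half-site and the AP-1 motif. Of 32851 promoters of the same length, 32.7% held a GC box, 17.8% the CREB core, 17.6% the NF-κB motif, 7.13% the p53 half-site and 6.75% the AP-1 motif. A match of letters is a description and not a binding site.

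Among the protective members, Mcl1, on which stem cells rely, rose in HSC of WT mice. WT vehicle mice were at 218, 220, 183 and 142 CPM in HSC and WT IL1β mice at 358, 353, 322 and 371 CPM. In Tet2-KO the values were 453, 310, 196 and 180 CPM with vehicle and 356, 464, 372 and 305 CPM with IL1β. The WT groups did not overlap and the Tet2-KO groups did. The log2 fold change was 0.83 ± 0.21 in WT (edgeR adjusted p = 0.0119) and 0.34 ± 0.19 in Tet2-KO (adjusted p = 0.231), and the difference between them was -0.49 ± 0.29 and not called (adjusted p = 0.9999). The WT call was lost without WT vehicle mouse 4. In Tet2-KO, Mcl1 in HSC was called higher with no filter on low counts and at Leiden resolution 0.5. It was also called there without Tet2-KO vehicle mouse 1, the mouse at 453 CPM.

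In Prog, Mcl1 rose in both genotypes. WT vehicle mice were at 161, 80.8, 171 and 132 CPM and the 3 WT IL1β mice at 240, 466 and 294 CPM. In Tet2-KO they were 225, 158, 175 and 182 CPM with vehicle and 526, 527, 441 and 254 CPM with IL1β. Neither pair of groups overlapped, and the log2 fold change was 1.13 ± 0.25 in WT (edgeR adjusted p = 0.0069) and 1.20 ± 0.22 in Tet2-KO (adjusted p = 0.00146). The WT call was lost without WT IL1β mouse 3 and with a marker gate on each cell, and the WT log2 fold change over the alternatives was 0.70, with that gate, to 1.31. In Prog, where Pmaip1 rose too, the classes with IL1β rested on 112 cells in WT and 111 in Tet2-KO, against 453 and 489 with vehicle. The median mitochondrial share per cell was 4.21% with vehicle and 5.46% with IL1β in WT, and 4.02% and 5.36% in Tet2-KO. The 10 Gran/Mono Prog markers summed to 646.1 to 1014 CPM with vehicle and 716.8 to 1168 with IL1β in WT, and to 661.7 to 996 and 1550 to 1796 in Tet2-KO. In Tet2-KO the 10 IMP markers summed to 3986 to 4827 CPM with vehicle and 5932 to 6627 with IL1β, the 10 Mono markers to 267.7 to 524.2 and 563.2 to 948.6, and the 10 CLP markers to 1812 to 3295 and 1183 to 1998. In WT the mice overlapped in these 3 lists, but of 18 marker lists 4 lay apart in WT Prog: IL1β mice were lower in the HSC list (662.1 to 839.9 CPM with vehicle and 358.4 to 614.6 with IL1β), the pDC list (1417 to 1726 and 947.2 to 1202) and the Neut list (640.3 to 887 and 186.6 to 612.9), and higher in the Baso list (48.5 to 351.6 and 473.6 to 548.7). The part of these measures in the results was not tested. Mcl1 was positive in all 9 classes of WT (0.14 to 1.13) and was not called in the other 7.

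Bcl2l1, the source of BCL-XL, was called higher in HSC, IMP and Gran/Mono Prog of WT mice and in no class of Tet2-KO. In HSC, WT vehicle mice were at 12.2, 9.58, 10.4 and 8.01 CPM and WT IL1β mice at 26.6, 14.7, 23.1 and 39.3 CPM. Tet2-KO vehicle mice were at 17.9, 33.4, 18.8 and 13.9 CPM there and Tet2-KO IL1β mice at 22.2, 22.1, 17.0 and 24.0 CPM. The WT groups did not overlap, the Tet2-KO groups did, and all 4 Tet2-KO vehicle mice were above all 4 WT vehicle mice. These are low counts. The smallest HSC sum of a mouse held 104421 UMIs, and the 9.58 CPM of WT vehicle mouse 2 was a single UMI. A further UMI in that mouse could make the groups overlap. The log2 fold change was 1.24 ± 0.30 in WT (edgeR adjusted p = 0.00742) and 0.12 ± 0.23 in Tet2-KO (adjusted p = 0.771). The difference between genotypes was -1.12 ± 0.38 and was not called once all genes of the class were counted (adjusted p = 0.9999). In IMP and Gran/Mono Prog of WT the log2 fold changes were 0.50 ± 0.18 and 0.69 ± 0.24 (adjusted p = 0.0423 and 0.0349), and both calls were lost without WT vehicle mouse 1, 3 or 4 or WT IL1β mouse 1 or 3. That in IMP was also lost without WT vehicle mouse 2, and that in Gran/Mono Prog without WT IL1β mouse 4. Both were lost as well with a mitochondrial limit of 5%, a marker gate on each cell and the 8 pools as replicates, and in all that in IMP was lost in 13 of 25 alternatives and that in Gran/Mono Prog in 9 of 25, with fold changes of 0.35 to 0.69 in IMP and 0.55 to 0.86 in Gran/Mono Prog over all alternatives.

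Bcl2, the protector of lymphoid cells, was called lower in IMP of both genotypes. WT mice there had 142, 121, 127 and 134 CPM with vehicle and 85.9, 81.8, 104 and 132 CPM with IL1β, and Tet2-KO mice had 98.3, 93.8, 111 and 140 CPM and 68.3, 101, 66.4 and 76.4 CPM. The groups overlapped in both on the CPM scale, and the fitted log2 fold change was -0.61 ± 0.15 in WT (edgeR adjusted p = 0.00427) and -0.66 ± 0.14 in Tet2-KO (adjusted p = 0.00128). The fit uses TMM factors and the CPM do not. Over all alternatives the log2 fold change was -0.75 to -0.41 in WT and -0.81 to -0.50 in Tet2-KO. The other 8 classes were not called in either genotype.

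**Figure D5:**
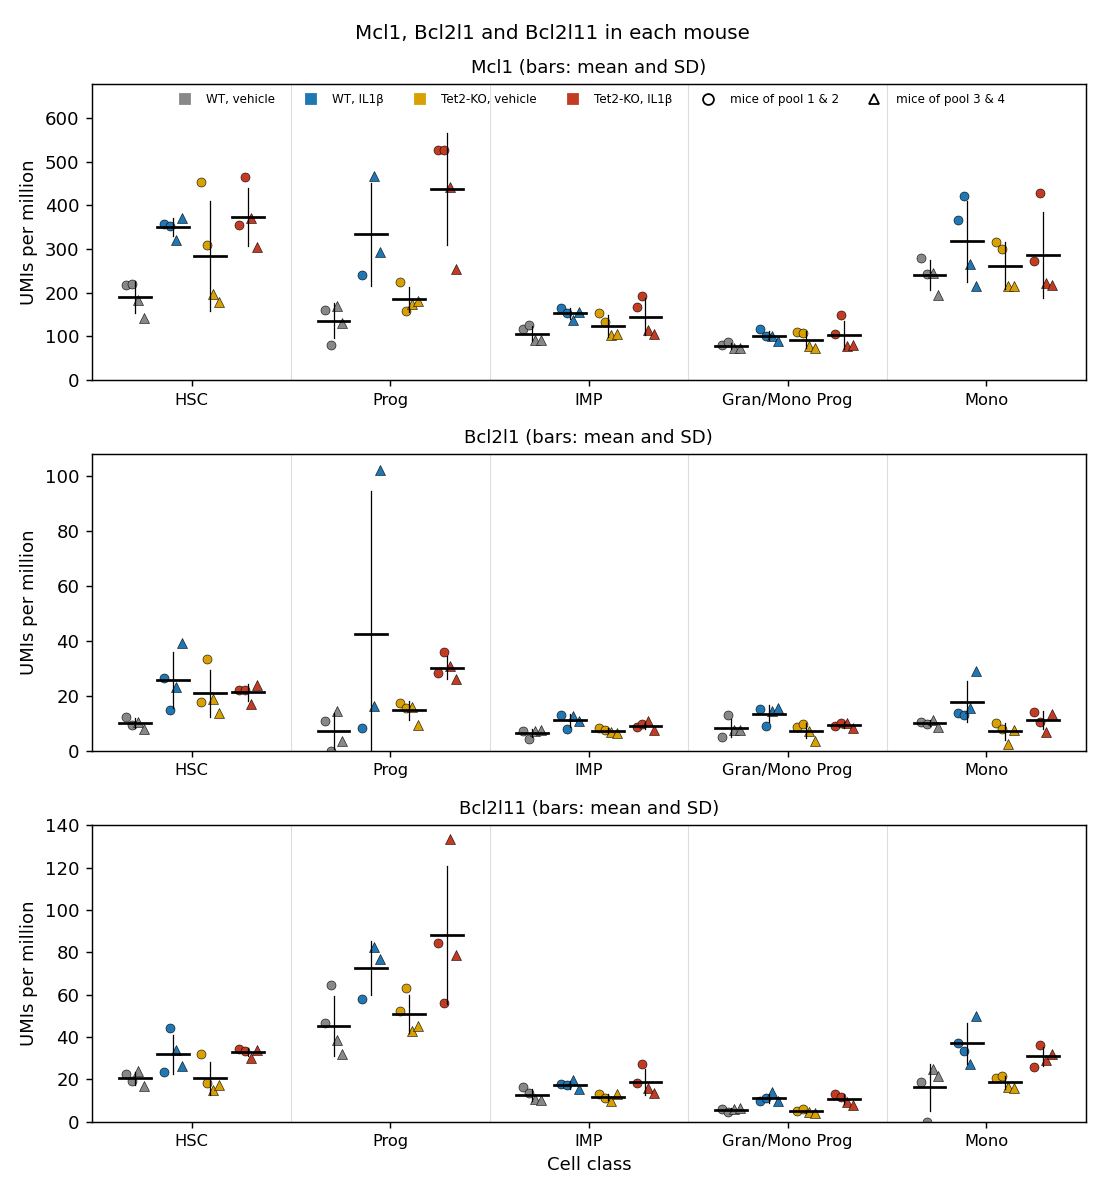
Mcl1, Bcl2l1 and Bcl2l11 in each mouse (points) as CPM on the y axis, in 5 cell classes on the x axis, with colours for the 4 groups, shapes for the pools, and bars for the mean and SD. In HSC the WT IL1β mice lie above all WT vehicle mice for Mcl1 (322 to 371 against 142 to 220) and Bcl2l1 (14.7 to 39.3 against 8.01 to 12.2).

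The fourth protective member, Bcl2a1b, is 1 of several near-identical A1 genes on chromosome 9 and was too rare to test in any class, with 256 UMIs among 389976364 over the 17 classes. The copies Bcl2a1a, Bcl2a1d and Bcl2a1c had 106, 31 and 2 UMIs. The Bcl2a1b transcript of 817 bases was 98.2% identical to Bcl2a1a and 99.1% to Bcl2a1d, and in the last 300 bases, where 3′ reads fall, it differed from them at 4 and 2 positions. The counts of the copies are therefore uncertain. The start of the coding sequence is shown, positions 1 to 60 of 519 from the GENCODE vM21 transcripts, with capitals at the 6 positions of this stretch where the copies differ.
Bcl2a1a: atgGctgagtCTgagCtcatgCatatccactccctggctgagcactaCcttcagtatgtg
Bcl2a1b: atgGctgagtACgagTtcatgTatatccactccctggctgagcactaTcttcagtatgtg
Bcl2a1d: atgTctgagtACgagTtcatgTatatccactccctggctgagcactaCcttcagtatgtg

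Of the BH3-only genes other than Pmaip1, Bcl2l11 rose in Gran/Mono Prog of both genotypes. Its product BIM is known to limit the lifespan of myeloid and lymphoid cells. WT vehicle mice were at 6.08, 4.33, 5.83 and 6.30 CPM in Gran/Mono Prog and WT IL1β mice at 9.50, 11.1, 14.1 and 9.53 CPM. Tet2-KO vehicle mice were at 5.05, 5.78, 4.48 and 4.02 CPM and Tet2-KO IL1β mice at 13.2, 11.6, 9.31 and 7.99 CPM. No IL1β mouse overlapped the vehicle mice of its genotype, and the log2 fold change was 0.73 ± 0.21 in WT (edgeR adjusted p = 0.0135) and 0.91 ± 0.19 in Tet2-KO (adjusted p = 0.000896). The WT call was lost without WT IL1β mouse 3 and with the 8 pools as replicates (0.61 to 0.91 over all alternatives). In Tet2-KO it was also called in IMP (0.51 ± 0.19, adjusted p = 0.0404) and Mono (0.65 ± 0.20, adjusted p = 0.0417), and both calls were lost without Tet2-KO vehicle mouse 3 or 4 or Tet2-KO IL1β mouse 1 or 2. That in IMP was also lost without Tet2-KO vehicle mouse 2, and that in Mono without WT vehicle mouse 4 or Tet2-KO IL1β mouse 3 or 4. Both were also lost with DESeq2, a marker gate on each cell and the 8 pools as replicates. The fold change over all alternatives was 0.24, without Tet2-KO IL1β mouse 2, to 0.78 in IMP and 0.52 to 0.80 in Mono. Bbc3, whose product PUMA is a p53 target, was called in none of 7 classes of either genotype (-0.09 to 1.35 in WT, -0.55 to 0.51 in Tet2-KO). Bid, which links death receptors to mitochondria, was called in none of 8 (-0.50 to 0.16 in WT, -0.19 to 0.27 in Tet2-KO).

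In HSC, Pmaip1 was called higher and Bax lower in both genotypes, and Mcl1 and Bcl2l1 were called higher in WT alone. Mcl1 was called in HSC of Tet2-KO as well under some alternatives, among them without Tet2-KO vehicle mouse 1. Other measures moved there with IL1β. The median mitochondrial share per cell was 4.29% with vehicle and 5.13% with IL1β in WT, and 4.00% and 4.96% in Tet2-KO. The 10 IMP markers summed to 3534 to 4207 CPM in WT vehicle mice, 4444 to 5916 in WT IL1β mice, 4022 to 4634 in Tet2-KO vehicle mice and 4925 to 6726 in Tet2-KO IL1β mice. The 10 Gran/Mono Prog markers, all measured and none at 0 in every mouse, summed to 855.9 to 1172 CPM in WT vehicle mice and 1187 to 1951 in WT IL1β mice, and to 932.3 to 1356 and 1451 to 2349 in Tet2-KO. The 10 HSC markers summed to 1932 to 2240 CPM and 1397 to 1935 CPM in WT with vehicle and IL1β, and to 2043 to 2384 and 1753 to 2166 in Tet2-KO. The 10 Prog markers summed to 2499 to 3053 and 3473 to 4328 CPM in WT, and to 3001 to 3676 and 3855 to 4994 in Tet2-KO. Of 18 marker lists, IL1β mice were higher without overlap in 4 in WT (Prog, IMP, Gran/Mono Prog and Eo). In Tet2-KO they were higher in 5, these and pDC, and 0 lists were lower without overlap in either genotype. The part of these measures in the results was not tested. With cells limited to a mitochondrial share of 5%, the HSC calls of all 4 genes in WT and of Pmaip1 and Bax in Tet2-KO were kept. With a marker gate on each cell, Bax and Bcl2l1 in HSC of WT were no longer called, and with the 8 pools as replicates Bcl2l1 and Mcl1 in HSC of WT were not. Over all alternatives the log2 fold changes in HSC of WT were -0.86 to -0.60 for Bax, 0.87 to 1.38 for Bcl2l1 and 0.71 to 1.02 for Mcl1.

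No member was called between the Tet2 genotypes. With vehicle, 0 of 74 combinations were called, against 0.0393% of all gene and class combinations, and 5 had an unadjusted p under 0.05 by edgeR. With IL1β, 0 of 74 were called against 0.398% of all, and 5 had an unadjusted p under 0.05. Among all genes, such an edgeR p with vehicle was held by 538 of 9642 in HSC and 342 of 7085 in MEP, the classes of those 5 members. With IL1β the classes of the 5 members had 641 of 9642 in HSC, 875 of 10521 in IMP, 785 of 10027 in Gran/Mono Prog and 314 of 7085 in MEP. DESeq2 also called 0 in both. Of the 5 with vehicle, 4 were in HSC, among them Bcl2l1, which differed by 0.93 ± 0.30 on the log2 scale (95% interval 0.35 to 1.52, adjusted p = 0.758), and Mcl1, at 0.63 ± 0.21 (0.21 to 1.05, adjusted p = 0.786), both with the higher mean in Tet2-KO. Bcl2 had the lower level in Tet2-KO HSC, without overlap of the mice (-0.41 ± 0.14, interval -0.69 to -0.13, adjusted p = 0.85). The interaction of genotype and IL1β called 0 of 74 combinations against 0% of all 76333, with 1 at an unadjusted p under 0.05, that of Bcl2l1 in HSC, and DESeq2 called 0 as well. Of all 9642 genes tested in HSC, 329 had such an unadjusted interaction p by edgeR. For Pmaip1 the interaction in IMP was -1.51 ± 0.90 (interval -3.27 to 0.24), and for Bax in IMP it was -0.09 ± 0.17 (interval -0.42 to 0.25), so the intervals for Pmaip1 were wide and those for Bax in IMP narrower.

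The wider death pathway was read from 4 lists. Tested in at least 1 class were 6 of 14 other Bcl2 family genes, all 14 apoptosome and caspase genes, all 11 caspase inhibitors and death receptor genes and 11 of 12 genes of p53 and its targets. With IL1β in WT, 20 of 75 combinations were called in the list of caspase inhibitors and death receptor genes (16 higher, median log2 fold change 0.25), 16 of 119 in apoptosome and caspase genes (8 higher, median -0.10), 11 of 71 in p53 and its targets (9 higher, median 0.10) and 8 of 46 in other Bcl2 family genes (3 higher, median 0.08). In Tet2-KO the counts were 23 of 75 (20 higher, median 0.30), 27 of 119 (11 higher, median -0.13), 14 of 71 (8 higher, median 0.04) and 12 of 46 (8 higher, median 0.11). The shares called among all genes were 14% in WT and 18.3% in Tet2-KO.

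Birc3, which encodes the caspase and NF-κB pathway regulator cIAP2, rose in 7 of 9 classes in WT and 6 of 9 in Tet2-KO. In HSC it averaged 18.2 CPM (SD 10.3) with vehicle and 75.8 CPM (SD 39.2) with IL1β in WT, and 15.2 CPM (SD 4.93) and 95.4 CPM (SD 38.8) in Tet2-KO, each n = 4. Apaf1, the scaffold of the apoptosome, rose in 5 of 9 and 7 of 9 classes, and in Gran/Mono Prog averaged 28.0 CPM (SD 5.09) and 62.3 CPM (SD 9.26) in WT and 28.0 CPM (SD 4.02) and 61.7 CPM (SD 2.53) in Tet2-KO. The direct caspase inhibitor Xiap rose in 3 and 5 of 9 classes. Trp53inp1, a p53 target, rose in 4 of 9 classes of each genotype, in Gran/Mono Prog by 2.79 ± 0.37 in WT and 1.95 ± 0.28 in Tet2-KO on the log2 scale (edgeR adjusted p = 4.77e-05 and 3.47e-05).

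Genes that fell in the most classes included Bad, a BH3-only gene, which fell in the same 4 classes of both genotypes, Baso, IMP, Gran/Mono Prog and CFU-E, of 8 tested (in Baso by 0.64 ± 0.15 in WT and 0.71 ± 0.14 in Tet2-KO on the log2 scale). Cycs, which encodes the cytochrome c that starts the apoptosome, fell in 2 of 9 classes in WT and 6 of 9 in Tet2-KO, and the mitochondrial channel gene Vdac2 in 2 of 9 and 4 of 9. The mitochondrial nuclease gene Endog fell in 3 of 7 classes of each genotype, and the death receptor adaptor gene Fadd in 2 of 7 in WT and 3 of 7 in Tet2-KO. The receptor gene Tnfrsf1a fell in 2 of 8 classes in WT and 0 of 8 in Tet2-KO, and the p53 target Aen in 1 of 8 and 4 of 8. These counts were not tested against each other. Between genotypes with IL1β, Cycs was lower in Tet2-KO in IMP (-0.45 ± 0.09) and Gran/Mono Prog (-0.43 ± 0.09), with edgeR adjusted p = 0.0438 and 0.0465. In Gran/Mono Prog, Cycs averaged 463 CPM (SD 39.6) in WT and 441 CPM (SD 14.0) in Tet2-KO with vehicle, and 372 CPM (SD 30.1) in WT and 264 CPM (SD 13.6) in Tet2-KO with IL1β. With vehicle no gene of the 4 lists was called between genotypes.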

How the data were processed

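The authors deposited raw counts: whole-number UMIs per gene and barcode from Cell Ranger 3.1.0 on mm10, for barcodes called as cells, with hashtag counts beside them. The submitters' processing notes also name Seurat 3.2.3. Barcodes with under 750 genes or over 10% mitochondrial UMIs were removed, the limits of the study's methods. Hashtags were classified with HTODemux (Seurat 5.3.0). Of 94917 cells, 4.15% were doublets of hashtags and 34.85% negative, and both were left out of values per mouse; doublets within a mouse were not sought.

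WT vehicle cells assigned to a mouse were clustered (30 principal components of 2000 variable genes, 20 neighbours, Leiden resolution 1). The members and wider lists were kept out of the variable genes, and clusters were named from marker lists. Every other cell took the cluster most frequent among its 20 nearest WT vehicle cells. IL1β and Tet2-KO cells thus had no clusters of their own. UMIs were summed per mouse and class (at least 10 cells). Class sums held 42242 to 12206762 UMIs per mouse, so a single UMI weighs more in small classes. edgeR 4.0.16 (R 4.3.3, TMM, filterByExpr, quasi-likelihood test) was fitted per class over all 4 groups, with Benjamini-Hochberg adjustment over all genes tested in the class. SE is the log2 fold change divided by the root of F. In Prog, WT IL1β mouse 2 had too few cells, and in MEP, Tet2-KO vehicle mouse 2 and Tet2-KO IL1β mouse 1. The scripts were tested on simulated data.

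Replicates are separate mice by hashtag. All 10 members are named, and from the wider lists up to 4 genes in each direction called in the most classes, of which 1 result is not reported here. The members and lists were chosen with earlier results of these data known. Alternatives were RLE factors, library size alone, no filter on low counts, DESeq2 1.42.0, the pool number as a replicate block, pools as replicates, a mitochondrial limit of 5%, Leiden resolution 0.5, a marker gate on each cell, Neut without its smaller cluster and each mouse left out. Pools as replicates also took in the cells negative for hashtags. Promoter sequences came from RefSeq (GRCm38.p6) for 9 of the 10 members, with Pmaip1 left out. The Bcl2a1 transcript sequences came from GENCODE vM21. Python 3.11.15, numpy 2.4.6, pandas 2.3.3, scipy 1.17.1, scikit-learn 1.9.0, igraph 0.11.9, leidenalg 0.10.2, biopython 1.88 and matplotlib 3.10.9 were used.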

Additional observations from a re-analysis of the deposited data

Results flagged for a closer look

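In 4 of 72 groups of 4 mice tested, the mouse farthest from the rest passed Dixon's 95% limit, and chance flags about 1 in 20 groups. Bax in HSC was at 57.8 CPM in Tet2-KO IL1β mouse 4 and at 38.6 to 40.4 CPM in the other 3. Pmaip1 in Prog was at 24.0 CPM in Tet2-KO vehicle mouse 1 and at 0 to 3.58 CPM in the others. Bcl2l1 was at 9.04 CPM in Gran/Mono Prog of WT IL1β mouse 2 against 14.6 to 15.5 CPM, and at 4.48 CPM in IMP of WT vehicle mouse 2 against 7.11 to 7.46 CPM.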

How the results depend on the processing

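Of 20 calls in WT and 17 in Tet2-KO, the counts were 20 and 17 with RLE factors, 16 and 14 with DESeq2, 26 and 23 with no filter on low counts, 16 and 13 with a mitochondrial limit of 5%, 18 and 17 at Leiden resolution 0.5, 18 and 18 with a marker gate on each cell, and 11 and 9 with the 8 pools as replicates. The setting with pools changed the cells as well as the replicates, since it took in cells negative for hashtags. Leaving out each mouse in turn gave 14 to 21 and 12 to 20 calls. With no filter, 1 combination, Mcl1 in HSC, was called between genotypes with vehicle, where 0 were called otherwise, and leaving out any mouse gave 0 to 0 calls in both genotype comparisons and the interaction. Library size alone, added after the data were seen, gave 27 calls in WT (20 higher, 7 lower) and 19 in Tet2-KO (11 higher, 8 lower) while it moved the median of all genes by 0.094 to 0.189 and 0.005 to 0.154 on the log2 scale. No called sign changed under any alternative. With the pool number as a replicate block, 21 and 21 were called. The block lost Bcl2l1 in IMP and added Mcl1 in IMP and Neut in WT, and added Mcl1 in Neut and Pmaip1 in Baso, Mono and Neut in Tet2-KO. None of these added calls was made with the 8 pools as replicates. Deviations from the group means of same-numbered pools correlated at -0.40 to 0.24 and of mice at -0.46 to 0.28, and since not all were over 0.1 the numbers were not taken to pair the samples, although Pmaip1 and Mcl1 were higher in both mice numbered 1 and 2 than in those numbered 3 and 4 in 23 of 32 and 24 of 36 combinations of group and class. Those combinations reuse the same mice across classes, and no share over all genes was counted. Pmaip1 in HSC, Prog and IMP of both genotypes and Bax in IMP and Gran/Mono Prog of both were called in every alternative that could be fitted. With a mitochondrial limit of 5% Prog could not be fitted, and at resolution 0.5 Prog and MEP could not. The cause of these changes was not tested. Low counts limit Pmaip1 with vehicle, Bbc3, Bcl2a1b and Bcl2l1 in HSC, and a pool could not be separated from its mice.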
